A study of Homo sapiens with 6 samples.

Results

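The centromeres of chromosomes 1, 5 and 19 held 552 of the 18840 consensus peaks of nascent DNA in control and ERCC6L2-/- U2OS cells. A peak was counted here when its midpoint lay, in the human genome build hg38, between 121.6 and 125.1 Mb of chromosome 1, between 46.3 and 50.3 Mb of chromosome 5 or between 24.3 and 27.3 Mb of chromosome 19. Of these peaks 374 came from the 8555 of the ERCC6L2-/- list and 178 from the 10285 of the control list. A peak was called shared when it overlapped a peak of the other list by at least 1 base, and list-specific otherwise.

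U2OS is a human osteosarcoma line, and the control samples carry the WT label for genotype. The ERCC6L2-/- cells lack ERCC6L2, an ATPase of the SNF2 family. The knockout lines were clones grown from single CRISPR-edited cells, and which clone was sequenced is not given in the sources used here. Cells of both genotypes took up the thymidine analogue BrdU for 2 h, and the labelled, newly made DNA was immunoprecipitated and sequenced, with labelled E. coli DNA as a spike in all samples. The 3 samples of each genotype were merged by the authors into 1 consensus list, so no value per sample, no spread between replicates and no test between genotypes could be had. Sequencing depth is unknown here, and a difference in depth and a difference in replication cannot be told apart from the number of peaks. Intervals are 95% Wilson intervals over peaks, they cover counting error only, and neighbouring or identical places are not independent.

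Human centromeres lie on alpha-satellite, an AT-rich tandem repeat whose monomers are arranged in higher-order units. Many monomers carry the CENP-B box, the site bound by centromere protein B, and active centromeres are marked by nucleosomes with the histone variant CENP-A. The arrays of chromosomes 1, 5 and 19 belong to a closely related family built on a repeated dimer of monomers. In hg38 such arrays are models assembled from satellite reads, so the order of units in the reference need not be that of a real chromosome.

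The reference holds 1 array of 2282185 bases in all 3 centromeres, with 0 differing bases between the copies. It lies at chr1:122503248-124785432, chr5:47309185-49591369 and chr19:24908690-27190874 and is called the common array below. A read from it has the same match on each of the 3 chromosomes, so the chromosome under which a peak is listed is not informative there. The CENP-B box was searched as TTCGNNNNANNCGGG on both strands. It occurred 5696 times in the array, each time on the plus strand, or 2.50 times per kb. The array matched itself best at a shift of 340 bases, with 67.5% identity, against 46.8% at a shift of 171 bases. Of the 5695 distances between neighbouring boxes, 4554 (80.0%) were within 1 base of 340. The most frequent form of the box made up 2892 of the 5696 and the first box-to-box unit of 340 bases is shown with it, because both describe the sequence that nearly every peak below contains. The first monomer of that unit, of 171 bases, carries the box and the second, of 169 bases, does not. They were 62.7% identical to each other over the second. In these lines capitals mark the 15 bases of the box core, and the bases are those of hg38, plus strand, starting at chr1:122503375.
Most frequent box: cTTCGTTGGAAACGGGa
Repeat unit, first monomer: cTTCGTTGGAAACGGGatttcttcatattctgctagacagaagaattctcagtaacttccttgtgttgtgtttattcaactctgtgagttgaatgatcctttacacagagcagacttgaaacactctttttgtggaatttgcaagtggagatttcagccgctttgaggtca
Repeat unit, second monomer: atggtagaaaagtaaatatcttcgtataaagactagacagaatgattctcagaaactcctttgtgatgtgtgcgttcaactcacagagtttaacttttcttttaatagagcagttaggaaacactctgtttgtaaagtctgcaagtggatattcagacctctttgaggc
All 3182 units of exactly 340 bases differed from each other, so the array is a set of variants of this dimer.

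Some of the peaks named below are shown next as examples by their central 300 bases, also plus strand with box cores in capitals. By the naming rule they are the highest-scoring ERCC6L2-/--only peak of each chromosome, ties at the score ceiling being broken by width. On chromosomes 1, 5 and 19, 42, 53 and 50 ERCC6L2-/--only peaks tied at the ceiling, so each is the widest of the tied peaks. The control-only line is the highest-scoring control-only peak for which no copy of the array had an ERCC6L2-/- peak.
ERCC6L2-/--only, chr1:124692343-124692642: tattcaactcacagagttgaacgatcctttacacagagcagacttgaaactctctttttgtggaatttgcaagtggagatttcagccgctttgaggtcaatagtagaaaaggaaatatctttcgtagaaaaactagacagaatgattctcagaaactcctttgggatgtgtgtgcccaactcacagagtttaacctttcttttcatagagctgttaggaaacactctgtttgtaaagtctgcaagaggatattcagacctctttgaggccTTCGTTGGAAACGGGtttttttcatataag
ERCC6L2-/--only, chr5:47487659-47487958: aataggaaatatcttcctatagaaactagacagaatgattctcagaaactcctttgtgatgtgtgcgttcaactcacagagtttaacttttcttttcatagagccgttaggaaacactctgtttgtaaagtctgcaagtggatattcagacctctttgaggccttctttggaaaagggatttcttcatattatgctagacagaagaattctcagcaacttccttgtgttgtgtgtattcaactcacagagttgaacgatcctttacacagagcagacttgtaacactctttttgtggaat
ERCC6L2-/--only, chr19:26627177-26627476: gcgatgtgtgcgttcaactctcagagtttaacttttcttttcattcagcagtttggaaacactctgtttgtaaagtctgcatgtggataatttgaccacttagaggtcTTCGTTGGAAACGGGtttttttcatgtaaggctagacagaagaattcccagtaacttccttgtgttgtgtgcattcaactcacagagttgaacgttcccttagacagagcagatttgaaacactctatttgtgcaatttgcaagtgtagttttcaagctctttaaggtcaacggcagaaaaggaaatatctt
Control-only, chr5:47341967-47342266: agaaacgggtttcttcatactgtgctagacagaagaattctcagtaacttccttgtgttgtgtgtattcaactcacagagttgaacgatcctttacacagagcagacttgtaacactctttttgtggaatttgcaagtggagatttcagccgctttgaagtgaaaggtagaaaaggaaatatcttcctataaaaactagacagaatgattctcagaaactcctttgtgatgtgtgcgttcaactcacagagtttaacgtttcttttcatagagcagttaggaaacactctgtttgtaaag
The stretches from chromosomes 1 and 19 each hold 1 box core. The stretch from chromosome 5 and the control-only stretch hold 0 in their central 300 bases, although the peaks around them hold 7 and 2.

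ERCC6L2-/- cells had 133 peaks on chromosome 1, 120 on chromosome 5 and 121 on chromosome 19, where control cells had 65, 58 and 55. The ratio of ERCC6L2-/- to control peaks was 2.05 (1.52 to 2.75), 2.07 (1.51 to 2.83) and 2.20 (1.60 to 3.02), and 2.10 (1.76 to 2.51) over the 3 chromosomes. In covered sequence the ratio was 2.09, with 527.8 kb under ERCC6L2-/- peaks and 252.9 kb under control peaks. Of the 374 ERCC6L2-/- peaks, 213 (57.0%, 51.9 to 61.9) overlapped no control peak, against 18.9% of the whole ERCC6L2-/- list. Of the 178 control peaks, 16 (8.99%, 5.61 to 14.1) overlapped no ERCC6L2-/- peak, against 32.8% of the whole control list. ERCC6L2-/--only peaks numbered 74, 70 and 69 on chromosomes 1, 5 and 19, and control-only peaks 6, 7 and 3. The intervals of the 3 chromosomes overlapped widely, and most control peaks had an ERCC6L2-/- peak over them.

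**Figure D1:**
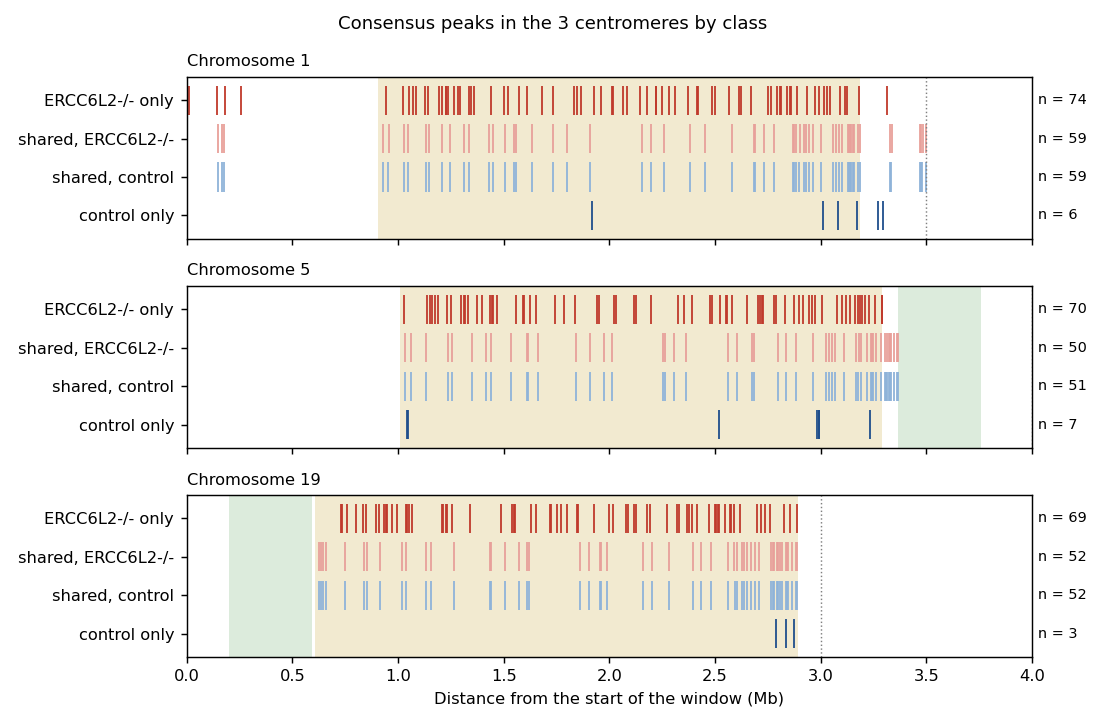
Positions of the 552 consensus peaks in the 3 centromeres (x axis, Mb from the start of each window; each line is a peak midpoint) by class, with the number of peaks at the right and a dotted line at the end of shorter windows. The beige band is the common array, which holds 208 of the 213 ERCC6L2-/--only peaks, and the green band is the block shared by chromosomes 5 and 19, which holds no peak.

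Nearly all of these peaks lay in the common array, which held 119, 112 and 121 ERCC6L2-/- peaks and 54, 49 and 55 control peaks on chromosomes 1, 5 and 19. It held 208 of the 213 ERCC6L2-/--only and 14 of the 16 control-only peaks. On chromosome 19 every peak of the window was inside it. A second block of 392.3 kb was identical between chr5:49667532-50059807 and chr19:24498981-24891256, with 14 boxes in all, and neither list had a peak there. The 847.7 kb of known sequence to the left of the array on chromosome 1 had 1229 boxes (1.45 per kb) and 7 ERCC6L2-/- peaks, 4 of them ERCC6L2-/--only. In the 945.4 kb to its left on chromosome 5 neither list had a peak, with 504 boxes (0.533 per kb). Long stretches with boxes were thus also found without a peak in either list.

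Outside the array there were 17 shared and 5 ERCC6L2-/--only peaks of the ERCC6L2-/- list and 18 shared and 2 control-only peaks of the control list. To the left of the array on chromosome 1, control cells had 3 peaks, all shared, beside the 7 of ERCC6L2-/- cells. Between the array and the second block on chromosome 5, 39.2 kb of known sequence held 8 ERCC6L2-/- and 9 control peaks, all shared and all at the score ceiling. The widest shared ERCC6L2-/- peak of chromosome 5, chr5:49610094-49617152, was one of these, with 7059 bases and 5 boxes. To the right of the array on chromosome 1 there were 6 shared ERCC6L2-/- peaks, 1 ERCC6L2-/--only peak and 2 control-only peaks, chr1:124869175-124871087 and chr1:124892843-124894143. The widest shared ERCC6L2-/- peak of chromosome 1, chr1:125071807-125076353, was also there and had 0 boxes. No gene of GENCODE release 44 overlapped any of the 3 windows.

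Within the common array the same places were found again on the other chromosomes. Of the 119 ERCC6L2-/- peaks on chromosome 1, 95 (79.8%) overlapped an ERCC6L2-/- peak at the same array position on chromosome 5, where they were 95 of 112 (84.8%). The overlap was 99 of 119 (83.2%) and 99 of 121 (81.8%) for chromosomes 1 and 19, and 96 of 112 (85.7%) and 96 of 121 (79.3%) for chromosomes 5 and 19. For control peaks the shares ran from 66.7% to 79.6%. Between the genotypes on one chromosome, 42.0%, 37.5% and 43.0% of ERCC6L2-/- peaks overlapped a control peak on chromosomes 1, 5 and 19, a share that the shorter control list limits. In the other direction 92.6%, 85.7% and 94.5% of control peaks overlapped an ERCC6L2-/- peak, more than overlapped a control peak on another copy. The ERCC6L2-/- list has more peaks in the array, which favours the first of these overlaps. Most peak edges were close to each other between copies, with a median difference between starts of 13 to 18 bases for ERCC6L2-/- and 18 to 25 bases for control peaks. In 15.2% to 17.9% of matched ERCC6L2-/- pairs and 26.8% to 30.8% of matched control pairs, however, a start or an end differed by more than 500 bases, and by up to 2292 bases. The copies are the same sequence and are not 3 separate observations.

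The 3 copies were then laid over each other, and overlapping peaks of either list were joined into loci on the array. The 510 peaks fell into 155 loci with a median width of 1383 bases. ERCC6L2-/- cells had a peak on at least 1 copy at 150 loci and control cells at 75, a ratio of 2.00 (1.52 to 2.64). Of the 150 loci, 80 (53.3%, 45.4 to 61.1) had no control peak on any copy, and of the 75 control loci, 5 (6.67%, 2.88 to 14.7) had no ERCC6L2-/- peak. Counted once per locus, the difference between the lists thus stayed near its size per peak.

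**Figure D2:**
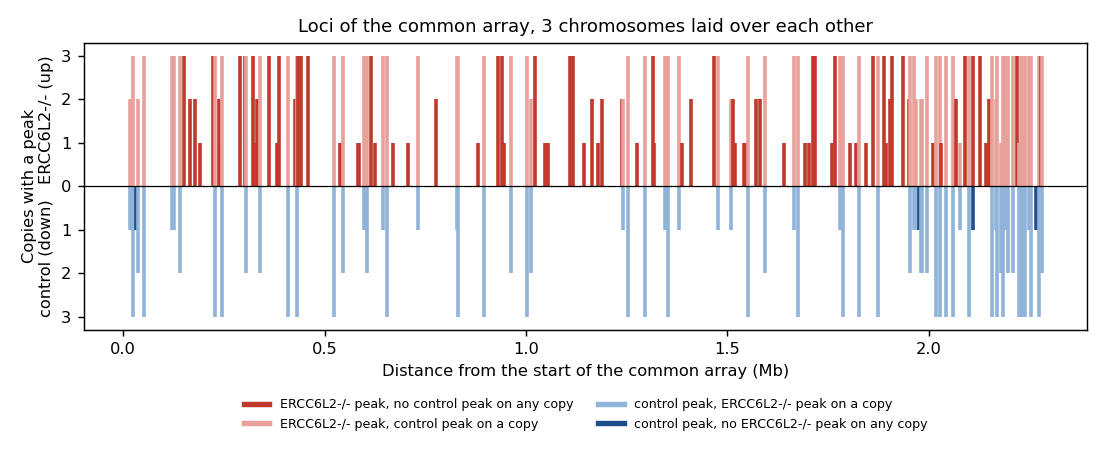
Number of the 3 copies with an ERCC6L2-/- peak (up) and with a control peak (down) at each of 155 loci along the common array (x axis, Mb from its start). Dark lines are loci of 1 list alone, 80 for ERCC6L2-/- and 5 for control, and light lines are the 70 loci of both.

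How often a locus was called on the copies set the classes apart. Of the 80 ERCC6L2-/--only loci, 30 had a peak on all 3 copies, 17 on 2 and 33 on 1. Of the 70 loci of both lists, 58 had an ERCC6L2-/- peak on all 3 copies and 32 had peaks of both lists on all 3. Among loci with a control peak on all 3 copies, 32 of 33 (97.0%, 84.7 to 99.5) also had ERCC6L2-/- peaks on all 3, against 14 of 25 (56.0%, 37.1 to 73.3) where the control list had 1. Each of the 5 control-only loci had a peak on 1 copy. At ERCC6L2-/--only loci, 13 of 33 peaks (39.4%, 24.7 to 56.3) were at the score ceiling where 1 copy was called, 18 of 34 (52.9%, 36.7 to 68.5) where 2 were, and 75 of 90 (83.3%, 74.3 to 89.6) where all 3 were. The last share was close to the 152 of 174 (87.4%, 81.6 to 91.5) at loci of both lists with all 3 copies called. These 90 and 174 peaks are 30 and 58 loci on identical copies, so the intervals are too narrow. Counted once per locus, all ERCC6L2-/- peaks were at the ceiling at 23 of the 30 loci called on all 3 copies in ERCC6L2-/- cells and on none in control cells. The same held at 46 of the 58 loci of both lists. The 33 loci called on 1 copy lay lower by this score, were narrower (median 994 bases against 1387) and held words that recur more often in the array (median 214 copies against 126). A locus spans all its joined peaks, so its width can grow with the number of copies called.

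Some list-specific peaks were specific only because of the chromosome they were listed under. Of the 208 ERCC6L2-/--only peaks of the array, 51 (24.5%, 19.2 to 30.8) had a control peak at the same array position on another chromosome, on 1 of them for 34 peaks and on both for 17. For comparison, 175 (9.91%) of the 1766 consecutive windows of 1292 bases along the array overlapped a control peak on any copy. The other 157 (75.5%, 69.2 to 80.8) had none on any copy. Among the 14 control-only peaks, 9 (64.3%, 38.8 to 83.7) had an ERCC6L2-/- peak at the same position on another chromosome, where 322 (18.2%) of the windows overlapped one. The median distance from an ERCC6L2-/--only peak to the nearest control peak was 16.2 kb on its own chromosome and 8.95 kb over the 3 copies.

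The named peaks show each of these cases. On chromosome 19 the highest-scoring ERCC6L2-/--only peak was chr19:26625985-26628669, with 2685 bases, 6 boxes and a score at the ceiling. Its counterparts at the same array position, chr1:124220545-124223227 and chr5:49026484-49029169, were 2683 and 2686 bases wide and also at the ceiling, and no copy had a control peak. This locus, which starts at base 1717296 of the array, was found on every copy in ERCC6L2-/- cells and on none in control cells. On chromosome 5 the peak was chr5:47486339-47489278, with 2940 bases and 7 boxes. Its place on chromosome 1 had an ERCC6L2-/- peak of 1940 bases, chromosome 19 had none and control cells had none on any copy. On chromosome 1 the peak was chr1:124690488-124694497, with 4010 bases and 12 boxes, the widest of the class. At its position chromosome 19 had a control peak of 1853 bases with a score of 276.7. This control peak lay over the left part of the ERCC6L2-/- peak only, so only that part was called in both lists. The rest of the peak, with its central bases shown above, had no control peak on any copy. It also had no ERCC6L2-/- peak on chromosomes 5 and 19, where the ERCC6L2-/- peaks, of 1722 and 1826 bases, lay over the left part only. That rest was thus called on 1 copy alone.

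Control-only peaks were fewer, narrower and mostly matched elsewhere. The peak chr1:123514914-123516215, with a score of 211.9, lay where ERCC6L2-/- cells had peaks on chromosomes 5 and 19 scored 198.0 and 197.0. Near the start of the array chr5:47345146-47346833 lay where they had peaks on chromosomes 1 and 19, and chr5:48817824-48818908, chr5:49289094-49289873 and chr5:49291591-49292296 were of the same kind. The pair chr1:124681589-124682013 and chr19:27087044-27087412 fell on 1 locus, where the only ERCC6L2-/- peak was on chromosome 5. The pair chr5:49533227-49533717 and chr19:27132732-27133237 fell on another, where the ERCC6L2-/- peak was on chromosome 1 with a score of 120.4 and the 3 control peaks had 122.4 to 164.1. No copy had an ERCC6L2-/- peak over the remaining 5, which were chr1:124612283-124612861, chr1:124770830-124771195, chr5:47341894-47342340, chr5:49282940-49284516 and chr19:27174101-27174452. These 5 were 352 to 1577 bases wide and each was called on a single chromosome.

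Along the array ERCC6L2-/- loci outnumbered control loci in 21 of 22 full bins of 100 kb, and the exception was the first, with 4 and 5. Full bins held 3 to 12 ERCC6L2-/- loci with a median of 6, and 0 to 9 control loci with a median of 2.5. The last, shorter bin of 82.2 kb held 11 ERCC6L2-/- and 11 control loci, and 2 of its loci were ERCC6L2-/--only. The bin that starts 1100 kb into the array had 6 ERCC6L2-/- loci and 0 control loci, with 12 ERCC6L2-/- peaks over the 3 chromosomes. Both lists were densest at the right end. From 1900 kb onward, a boundary set after the map was seen, 382.2 kb held 42 ERCC6L2-/- and 32 control loci, and 14 of the 42 (33.3%, 21.0 to 48.4) were ERCC6L2-/--only. The 1900 kb before it held 108 and 43, of which 66 (61.1%, 51.7 to 69.8) were ERCC6L2-/--only. The longest stretch between neighbouring control loci was 228.5 kb, against 68.9 kb for ERCC6L2-/-. The control list thus left long stretches of the array empty in which the ERCC6L2-/- list had peaks.

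Chained at 100 kb, the largest cluster of ERCC6L2-/--only peaks had 44 peaks over 1350 kb at chr1:123432380-124782368, 37 over 966.2 kb at chr5:48624398-49590557 and 46 over 1400 kb at chr19:25788315-27187818. The same spans held 35, 28 and 39 control peaks. ERCC6L2-/--only peaks were thus interspersed with shared ones.

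Shared peaks of the array were alike in width and differed in score. In the 144 pairs of a shared ERCC6L2-/- and a shared control peak on one chromosome, the medians were 1536 and 1405 bases. The ERCC6L2-/- peak was wider in 95 pairs and the control peak in 47, with a median difference of 22.5 bases (quartiles -14.8 and 182.2). The score, the authors' −log10 of the merged p-value, is written as infinite above 310.6 and is called at the ceiling then. Both peaks were at the ceiling in 93 pairs, the ERCC6L2-/- peak alone in 37 and the control peak alone in 1. ERCC6L2-/--only peaks had a median width of 1292 bases (range 324 to 4010), and 144 of 208 (69.2%, 62.7 to 75.1) were at the ceiling. Over the whole list 30.8% (28.6 to 33.1) of ERCC6L2-/--only peaks were. The 14 control-only peaks had a median width of 542 bases, and 7 were at the ceiling. The score comes from a p-value, which depends on depth, and the depth of the samples was not available to set beside it.

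A CENP-B box was found in nearly every peak of each class, a count that cannot rank classes here. Every one of the 510 peaks in the array had at least 1 box, and so did 1762 of the 1766 windows (99.8%) of 1292 bases along it. Boxes per kb had a median of 2.70 in ERCC6L2-/--only, 2.81 in shared ERCC6L2-/-, 2.76 in shared control and 2.80 in control-only peaks, against 2.32, or 3 boxes, in the windows. Peaks vary in width and the windows do not. Among the windows the median was the same 2.32 with a peak and without one, so in units of 1 width no difference was seen. Over the whole of the 3 windows 213 of 213 ERCC6L2-/--only peaks had a box, as did 154 of 161 shared ERCC6L2-/-, 155 of 162 shared control and 16 of 16 control-only peaks. The 7 shared peaks without one in each list lay outside the array. GC content was 39.1% to 39.3% in the median of each class and 39.2% in the array. Nearly any stretch of this width in the array has a box, whether a list had a peak there or not. A narrower stretch can miss one, and in the central 300 bases of the peaks of the array a box was found in 165 of 208 ERCC6L2-/--only (79.3%, 73.3 to 84.3), 108 of 144 shared ERCC6L2-/- (75%, 67.3 to 81.4), 95 of 144 shared control (66.0%, 57.9 to 73.2) and 12 of 14 control-only peaks. Consecutive windows of 300 bases along the array had one in 71.3% (70.3 to 72.3). The interval of ERCC6L2-/--only peaks lay just above those of shared control peaks and of the windows. Since many peaks recur on the other copies, these intervals are too narrow.

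Peaks did differ from the rest of the array in how often their sequence recurs in it. The array holds 543146 different words of 50 bases, and 367200 of these occur once. A word at the median position occurs 53 times. The median number of copies of a peak's words within the array had a median of 145 in ERCC6L2-/--only peaks (quartiles 90 and 243), 159 in shared ERCC6L2-/- (105 and 223), 166 in shared control (116 and 228) and 212 in control-only peaks (123 and 416). It was 46 (17 and 113) in the 1438 windows without a peak of either list. Peaks vary in width and the windows do not, so windows with a peak are the closer comparison. Their median was 102.5 with an ERCC6L2-/- peak and 110 with a control peak, a smaller difference than for the peaks themselves. With all windows ranked by copies and cut into 4 groups of near equal size, 9.69% of the group with the fewest copies (3 to 19) had an ERCC6L2-/- peak and 4.85% a control peak. In the group with the most copies (126 to 449), 28.9% and 16.6% did. Peaks of both genotypes were thus found more often over the more repeated variants of the dimer. The number of copies also rose along the array, from a median of 16 in the first bin of 100 kb to 123 in the last, shorter one, where both lists were densest. How reads with many equal matches were placed is not given in the sources used here, and its part in these values was not tested.

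**Figure D3:**
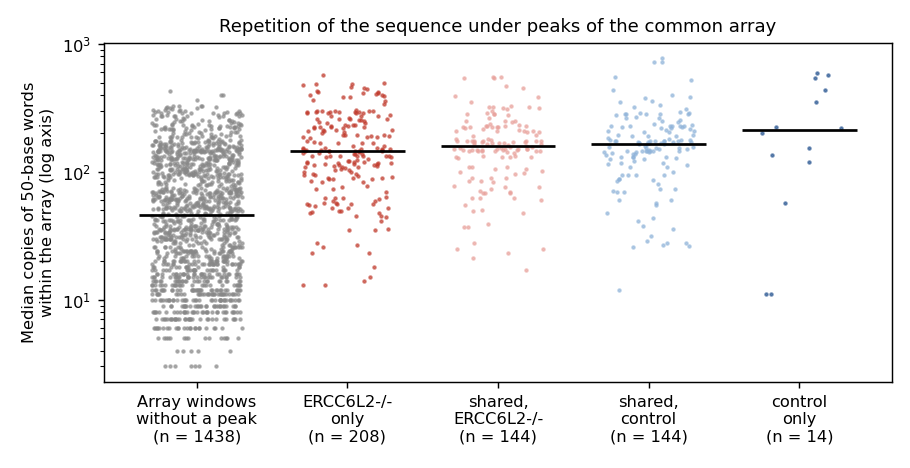
Median number of copies within the common array of the 50-base words of each window without a peak (grey) and of each peak, by class (y axis, log scale; black bars are class medians). The class medians of the peaks, 145 to 212, lie above that of the windows, 46, and the classes overlap each other widely. Windows of the same width with a peak, not plotted, had a median of 103.5.

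A list-specific place was not always a list-specific sequence. Of the 213 ERCC6L2-/--only peaks, 53 (24.9%, 19.6 to 31.1) had at least 90% of their words of 50 bases under some control peak of the 3 centromeres. The share was 44 of 51 (86.3%, 74.3 to 93.2) where a control peak lay at the same array position on another chromosome and 9 of 157 (5.73%, 3.04 to 10.5) where none did. The first of these shares follows largely from the identity of the copies, because the overlapping part is the same sequence. These 9 peaks were 324 to 544 bases wide, and among the 42 peaks of the 157 that were no wider than 544 bases they made up 21.4% (11.7 to 35.9). That limit is the greatest width of the 9 themselves, and some of the 9 are the same place on different copies. The share therefore depends on the peaks that passed, and its interval is too narrow. Of 6147 windows of 346 bases, the median width of the 9, without a control peak, 102 (1.66%, 1.37 to 2.01) reached 90%. Of 1591 such windows of 1292 bases 0 did, where 3 counts of the total would be a share of 0.189%. At the 157 positions without a control peak on any copy the median share of words under control peaks elsewhere was 67.7%, against 59.1% in the windows of 1292 bases. Most words of these peaks, as of other stretches of the array, thus also lay under control peaks elsewhere.

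The words of the common array are not confined to these 3 chromosomes. At 41.5% of its positions the word of 50 bases was also found outside the 3 windows, with 740691 matching positions on chromosome 16, 186518 on chromosome 7, 73932 on chromosome 10 and 60413 on chromosome 3. Counted once each, 4.04% of the different words of the array were found outside the windows. The 2.26 Mb of alpha-satellite of chromosome 16 had 4 ERCC6L2-/- and 3 control peaks, 1.77 and 1.33 per Mb. The common array had 51.4 ERCC6L2-/- and 23.1 control peaks per Mb of its 3 copies. Of the 552 peaks, 515 (93.3%, 90.9 to 95.1) had at least 90% of their words in another of the 3 centromeres. The 510 of the common array did so by the identity of the copies, and outside it 5 of 42 (11.9%, 5.19 to 25) did.

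ERCC6L2-/--only peaks were also frequent in alpha-satellite of other chromosomes. In all alpha-satellite outside the 3 windows, 369 of 875 ERCC6L2-/- peaks (42.2%, 38.9 to 45.5) overlapped no control peak. In the alpha-satellite of chromosome 12, 67 of 162 ERCC6L2-/- peaks (41.4%, 34.1 to 49.1) overlapped no control peak, in that of chromosomes 11 and 17 it was 63 of 125 (50.4%, 41.8 to 59.0), and in that of chromosomes 3, 6, 7, 10 and 16 it was 81 of 255 (31.8%, 26.4 to 37.7). The common array, with 208 of 352 (59.1%, 53.9 to 64.1), had an interval above those of chromosome 12 and of the group of 5 and overlapping that of chromosomes 11 and 17. The ratio of ERCC6L2-/- to control peaks was 2.23 (1.85 to 2.69) in the common array, 1.49 (1.17 to 1.89) on chromosome 12, 1.74 (1.30 to 2.32) on chromosomes 11 and 17 and 1.32 (1.10 to 1.59) on the group of 5. It was 0.769 (0.746 to 0.793) outside alpha-satellite and the 3 windows. The identical copies count 1 array 3 times, and on the 155 loci the share of 53.3% has an interval that overlaps that of chromosome 12. By score, 69.2% of the ERCC6L2-/--only peaks of the array were at the ceiling, against 14.9% (8.31 to 25.3) on chromosome 12, 20.6% (12.5 to 32.2) on chromosomes 11 and 17 and 24.7% (16.6 to 35.1) on the group of 5. The shared ERCC6L2-/- peaks of the array were also more often at the ceiling, with 90.3%, against 56.8%, 66.1% and 73.6% in the same order. The higher score was thus seen in both classes of ERCC6L2-/- peaks. With 1 list per genotype none of these differences was tested.

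**Figure D4:**
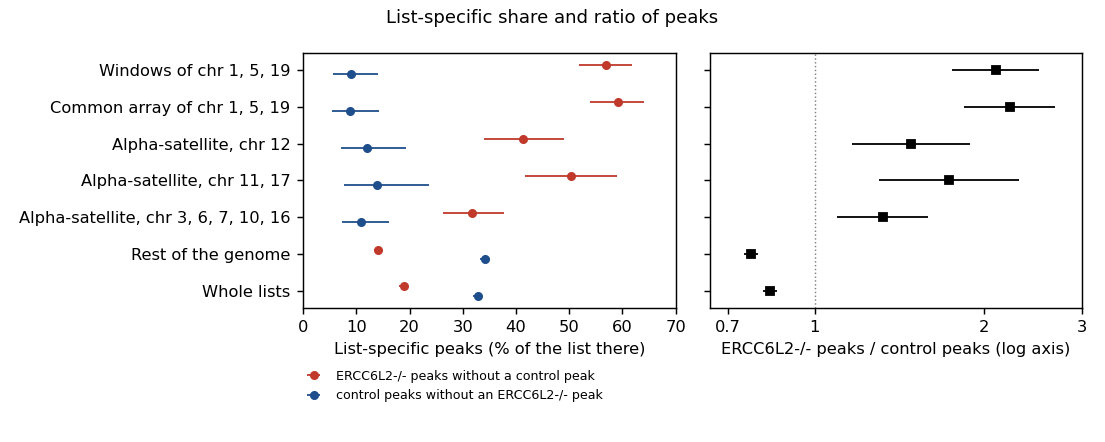
Left, share of ERCC6L2-/- peaks without a control peak (red) and of control peaks without an ERCC6L2-/- peak (blue), in percent of the list in each region. Right, ratio of ERCC6L2-/- to control peaks (log axis, dotted line at 1), with bars for 95% Wilson intervals in both panels; the windows and common array of chromosomes 1, 5 and 19 have the highest red shares of the regions plotted, 57.0% and 59.1%, and the highest ratios, 2.10 and 2.23.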

How the data were processed

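For each of the 6 samples the authors used TrimGalore for trimming, BOWTIE2 for alignment (UCSC hg38, patch 12), Picard for duplicates and MACS2 for peaks, and MSPC then combined the 3 samples of a genotype. The thresholds and the placing of reads with several equal matches are not given in the sources used here. The deposited consensus lists give positions and a −log10 p-value per merged peak. The deposited unique lists were not used, and classes were recomputed from the consensus lists. Depth per sample is unknown here.

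The reference was indexed (samtools 1.23.1) and read by position (pysam 0.24.0). Intervals came from scipy 1.17.1. Alpha-satellite outside the windows was defined by self-identity of at least 50% in windows of 1000 bases, giving 177 runs over 65.8 Mb. Words were counted on both strands, and within the array on its plus strand. Box search, overlap and chaining were tested on simulated sequences. Alternatives were other overlap rules, window limits, score limits, word lengths and box definitions, and each chromosome left out. Laying the copies over each other, the common array alone, also for central bases, windows of 346 bases and the restriction to places without a control peak on any copy were chosen after seeing the data.

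The members and lists were chosen with earlier results of these data known. Named items followed a rule: per centromere the largest cluster of ERCC6L2-/--only peaks (gaps up to 100 kb), the highest-scoring ERCC6L2-/--only peak, the widest shared ERCC6L2-/- peak and up to 10 control-only peaks. The widest shared peak of chromosome 19 was chr19:26923827-26927519, with 3693 bases and 10 boxes.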

Additional observations from a re-analysis of the deposited data

How the results depend on the processing

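No paired analysis was possible because the list used here for each genotype merges its 3 samples. Leaving out a replicate could not be run either. Of 51 values under other settings 38 stayed within the interval of the main value and 13 moved, and of 11 under settings chosen after seeing the data 7 stayed and 4 moved. The ERCC6L2-/--only share of 57.0% was 50% with peaks at the score ceiling only and 46.4% with peaks chained at 10 kb. The control-only share of 8.99% was 19.1% with a reciprocal overlap of 50% and 3.15% with peaks chained at 10 kb. The ratio of 2.10 was 1.66 with peaks chained at 10 kb. In the central 300 bases a CENP-B box was found in 78.4% of ERCC6L2-/--only, 70.2% of shared ERCC6L2-/-, 61.7% of shared control and 75% of control-only peaks, and with the common array alone in 79.3%, 75%, 66.0% and 85.7%. The share of ERCC6L2-/--only peaks with their words under control peaks, 24.9%, was 31.5% with words of 30 bases, 16.9% with words of 100 bases, 96.7% when 50% of words sufficed and 5.73% at places without a control peak on any copy. The share of peaks with words in another of the 3 centromeres, 93.3%, was 95.7% when 50% of words sufficed. Chaining joins close peaks and shorter stretches hold fewer boxes by construction, and the cause of the other shifts was not tested. The ERCC6L2-/--only share remained above the control-only share, and the ratio above 1, in each setting run. These are not separate outcomes. In the main setting the lists had nearly the same number of shared peaks, so the order of the shares follows from the ratio. Leaving out each chromosome gave an ERCC6L2-/--only share of 56.3% to 57.7% and a ratio of 2.06 to 2.13, which says little about stability, because the remaining copies hold the same array. Since depth is unknown here and the copies are identical, the lists do not show from which chromosome a peak's reads came, nor how the genotypes vary between samples.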
